A study of Mus musculus with 12 samples.

Results

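Transcript levels of 10 genes that carry glucose into the cell and on to lactate were followed in plated mouse hepatocytes, the main cell of the liver. The genes were the glucose transporter Slc2a1 (GLUT1) and the enzymes Hk2, Pfkl, Aldoa, Tpi1, Gapdh, Pgk1, Eno1, Pkm2 (the older symbol of Pkm, used in the deposited table) and Ldha. They were chosen by name, with earlier results of these data known. All 10 of 10 were found, each in 1 row, among the 37991 genes of the table. Levels were taken as FPKM, sequenced fragments scaled to the length of the gene and the size of the library. A gene was tested where 3 or more libraries held 1 FPKM or more of it, as did 11213 genes, 9 of the 10 among them. Hk2 lay below this filter in all 12 libraries and is described without that test.

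All 12 libraries came from male mice, 10 weeks old, that were double floxed for the nuclear receptors REV-ERBα and REV-ERBβ (the genes Nr1d1 and Nr1d2). In the KO-labelled groups an adeno-associated virus, AAV8-TBG-Cre-GFP, had been injected 2 weeks before, and in the control groups AAV8-TBG-GFP. TBG is a promoter active in hepatocytes, so other liver cells in the plates were not its target. The isolated cells were plated on collagen and kept for 8 h with 10 µM SR9009, a compound sold as a REV-ERB agonist, or with its solvent DMSO. The 4 groups of 3 libraries were KO-labelled SR9009, KO-labelled DMSO, control SR9009 and control DMSO. No group had Cre without floxed alleles, so effects of Cre and of the deletion cannot be told apart. The labels do not say whether the 3 libraries of a group came from separate mice or from separate plates, and p-values then measure only the spread between these libraries, which may be technical.

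Relative depth, read from the steps between low values, ranged from 55.5% in control SR9009 library 1 and 63.4% in KO-labelled DMSO library 1 to 77.0% or more in the others, with control DMSO library 1 as 100%. In the control DMSO group, library 1 was the highest of the 3 for all 9 tested genes. Gene-level values do not check the removal of single exons: Nr1d1 averaged 17.7 ± 0.459 FPKM in KO-labelled DMSO cells and 18.5 ± 0.412 FPKM in control DMSO cells (SD, n = 3 each; adjusted p = 0.492). Arntl (BMAL1), a clock gene that REV-ERB represses, averaged 6.49 ± 0.307 FPKM in KO-labelled DMSO cells and 0.214 ± 0.0796 FPKM in control DMSO cells (log2 difference 2.63, limma adjusted p = 1.04e-08). The 8 hepatocyte markers (Alb, Ttr, Cps1 and others) summed to 32000 to 33000 FPKM in KO-labelled SR9009 libraries, 34000 to 36200 in KO-labelled DMSO, 29600 to 31600 in control SR9009 and 33300 to 33800 in control DMSO libraries. Alb made up most of each sum, and single markers passed the limma test. In KO-labelled cells Apoa1, Ttr and Serpina1a were higher in both treatments, Cyp2e1 was lower in DMSO and Hnf4a lower under SR9009. With SR9009, Cps1 and Hnf4a were lower in both genotypes, Alb in control cells and Apoa1 in KO-labelled cells. Across all libraries, 12 macrophage markers summed to 40.6 to 69.2 FPKM, 5 bile duct markers to 29.1 to 61.7 FPKM, 4 red cell markers to 27.4 to 44.5 FPKM, 8 endothelial markers to 6.49 to 14.4 FPKM and 8 stellate cell markers to 1.71 to 2.84 FPKM. Alas2 alone, at 25.3 to 37.4 FPKM, made up most of the red cell sum, and Slc4a1 was under 1 FPKM in every library. Spp1, at 21.0 to 56.8 FPKM, made up most of the bile duct sum, and Krt7 and Epcam were under 1 FPKM throughout. Differences in these sums therefore largely follow single genes. The 5 lymphoid and neutrophil markers were under 1 FPKM in every library and S100a9 was at 0 in all.

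Glycolysis splits glucose into pyruvate, and lactate dehydrogenase can then turn pyruvate into lactate. Many steps have an enzyme form that most tissues share and another that marks hepatocytes: GLUT1 and the high-capacity transporter GLUT2 (Slc2a2), for example, and the M-type (Pkm) and L-type (Pklr) pyruvate kinases. Phosphofructokinase L, the product of Pfkl, is itself the main liver form, and Tpi1, Gapdh, Pgk1, Eno1 and Ldha encode forms that hepatocytes have in common with most cells. HIF-1, the oxygen-regulated factor made of Hif1a and Arnt, and MYC are known to raise many of these genes, and both bind DNA at motifs built on ACGTG. REV-ERB binds motifs with an AGGTCA core.

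Promoters of Slc2a1, Pfkl, Pgk1 and Ldha are printed here. Slc2a1 and Pfkl were the members that passed the test of SR9009 against DMSO, in opposite directions. The windows of Pgk1 and Ldha were taken for their letters: they hold more than 1 copy of ACGTG, as does that of Hk2, which is not printed. Each line gives the 250 bases before the gene's first listed start, 5′ to 3′ on the gene's own strand, from RefSeq on the GRCm38.p6 build, and capitals mark ACGTG or AGGTCA on either strand. The windows lie at chr4:119108495-119108744 on the plus strand (Slc2a1), chr10:78009808-78010057 on the minus strand (Pfkl), chrX:106186850-106187099 on the plus strand (Pgk1) and chr7:46845554-46845803 on the plus strand (Ldha).
Slc2a1: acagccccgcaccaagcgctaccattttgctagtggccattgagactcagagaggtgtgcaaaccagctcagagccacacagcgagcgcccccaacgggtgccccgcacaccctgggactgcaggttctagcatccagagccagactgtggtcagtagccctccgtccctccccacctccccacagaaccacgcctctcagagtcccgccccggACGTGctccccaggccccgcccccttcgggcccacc
Pfkl: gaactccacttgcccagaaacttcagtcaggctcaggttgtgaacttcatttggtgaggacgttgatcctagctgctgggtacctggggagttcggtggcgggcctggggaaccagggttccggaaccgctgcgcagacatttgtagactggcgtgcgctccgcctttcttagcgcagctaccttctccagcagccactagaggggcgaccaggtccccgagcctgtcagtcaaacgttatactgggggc
Pgk1: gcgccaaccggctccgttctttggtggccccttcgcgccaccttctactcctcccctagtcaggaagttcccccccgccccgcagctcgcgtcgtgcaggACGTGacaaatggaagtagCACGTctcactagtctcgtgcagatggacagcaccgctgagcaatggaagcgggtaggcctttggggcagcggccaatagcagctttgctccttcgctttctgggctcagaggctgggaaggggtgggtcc
Ldha: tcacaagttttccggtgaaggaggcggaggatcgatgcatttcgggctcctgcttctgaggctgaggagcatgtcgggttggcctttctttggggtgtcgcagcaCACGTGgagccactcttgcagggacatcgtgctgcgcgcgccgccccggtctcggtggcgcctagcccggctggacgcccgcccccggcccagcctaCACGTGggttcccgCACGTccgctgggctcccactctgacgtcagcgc

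The Slc2a1 window holds 1 copy of ACGTG close to the start, the Pgk1 window 2, and the Ldha window 2 copies of the palindrome CACGTG, each of which reads as ACGTG on both strands, and 1 further ACGTG. The Pfkl window holds none of these motifs, and neither does the window at the second listed start of Ldha, which is not printed. RefSeq promoters were matched for 10 of 10 genes, with 16 windows because Aldoa, Eno1, Pkm2 and Ldha have more than 1 listed start. ACGTG was found in 7 windows of 6 genes and in 16.6% of 32817 distinct mouse promoters of the same length. CACGTG, which contains ACGTG, was found in 1 window, that of Ldha, and in 6.02% of all promoters. AGGTCA was found in 4 windows of 3 genes (Aldoa, Eno1 and Pkm2), against 14.0% of all promoters, and the GC box GGGCGG in 10 windows of 8 genes, against 32.7%. Of the Aldoa windows 2 overlap and hold the same ACGTG and the same AGGTCA, and of the Eno1 windows 2 overlap and share copies of GGGCGG. A gene with several windows also has more room for a match than the single promoters behind the percentages. Both strands were searched, and a match describes the letters of a window, not a bound site.

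Per length, Ldha, which makes lactate dehydrogenase A, was the most abundant of the 10 transcripts in every group, and Hk2 the least. The order of mean levels was Ldha, Eno1, Pgk1, Aldoa, Gapdh, Tpi1, Slc2a1, Pfkl, Pkm2 and Hk2 in KO-labelled SR9009, KO-labelled DMSO and control DMSO cells, with Pkm2 above Pfkl in control SR9009 cells. Neighbours in that order had overlapping libraries for Gapdh and Tpi1 in KO-labelled SR9009 cells, for Slc2a1 and Pfkl in KO-labelled DMSO cells, for Pkm2 and Pfkl in control SR9009 cells, and for Eno1 with Pgk1 and Pfkl with Pkm2 in control DMSO cells. The other neighbours did not overlap. Added together, the 10 genes made up 0.242%, 0.227% and 0.236% of all FPKM in KO-labelled SR9009 libraries, 0.218%, 0.214% and 0.221% in KO-labelled DMSO libraries, 0.278%, 0.263% and 0.265% in control SR9009 libraries, and 0.296%, 0.267% and 0.270% in control DMSO libraries. In each treatment every KO-labelled library lay below every control library. In bulk RNA, fewer cells of a type and less RNA per cell cannot be told apart. Several of these genes, Gapdh foremost, have processed copies in the genome that can share reads with them, and whether reads were counted by strand is not stated, so their levels are uncertain to that extent.

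**Figure D1:**
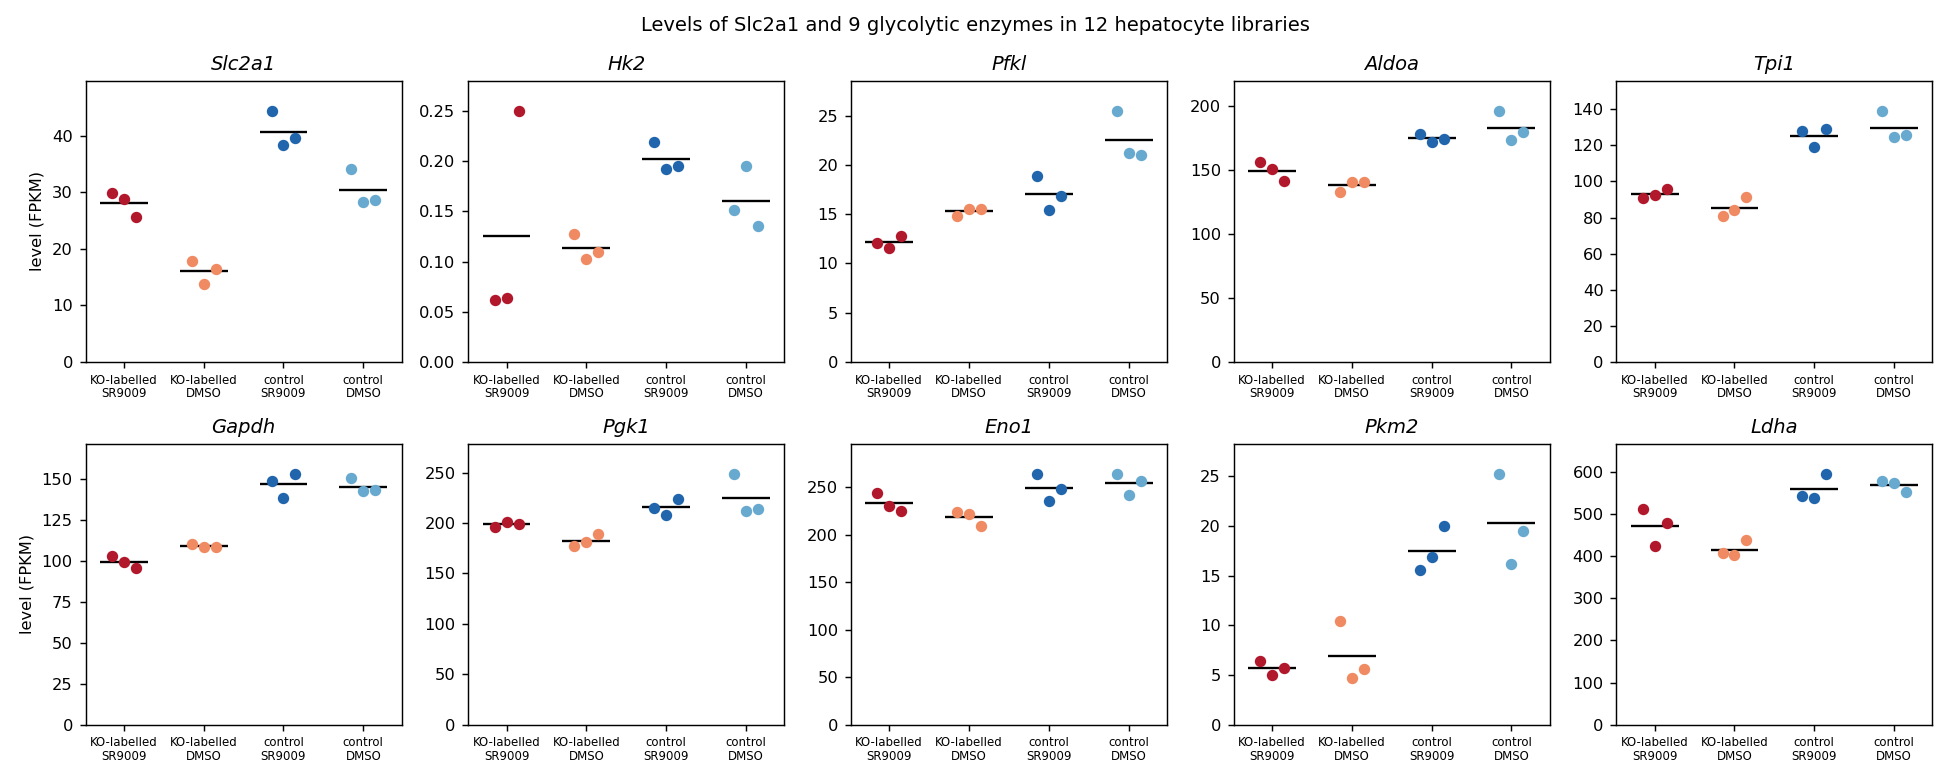
Levels in FPKM (vertical axes, each starting at 0) of Slc2a1 and the 9 enzymes in the 12 libraries, by group on the horizontal axis; points are libraries 1 to 3 from left to right and bars the group means. The KO-labelled points lie below the control points of the same treatment in most panels, Slc2a1 is higher with SR9009 in both genotypes, and Hk2 lies at or below 0.25 FPKM.

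The first comparison asked how hepatocytes labelled as lacking both REV-ERBs differ from control hepatocytes in DMSO. All 9 tested genes were lower in KO-labelled cells, with differences between group means of -14.2% for Eno1 to -66.0% for Pkm2, and none was higher. For comparison, 8.32% of the 11213 tested genes passed the test as lower and 11.7% as higher (20.0% in either direction). The members were not chosen blind to these data, so the shares are given as a description. That split depended on the scaling: 933 genes were lower and 1307 higher as deposited, 701 lower and 1597 higher after scaling every library to the same sum, and 1078 lower and 1135 higher after median-ratio scaling. In all 9 genes the 3 KO-labelled libraries lay below the 3 control libraries, a separation that 17.5% of tested genes had in that direction. The members' median log2 difference was -0.45, beside 0.04 over all tested genes. A log2 difference here is on the log2(FPKM + 1) scale, and each adjusted p comes from limma with Benjamini-Hochberg adjustment over the 11213 genes, at a threshold of 0.05.

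Slc2a1 (ENSMUSG00000028645, mm9 chromosome 4, plus strand, 118781316 to 118809935), the basal glucose carrier of most tissues, had 17.9, 13.8 and 16.5 FPKM in KO-labelled DMSO libraries, against 34.1, 28.3 and 28.6 FPKM in control DMSO libraries. The lowest control library was well above the highest KO-labelled library. The group means were 16.1 ± 2.1 FPKM in KO-labelled cells and 30.3 ± 3.28 FPKM in control cells, a difference of -47.0% (log2 difference -0.88, SE 0.10, 95% interval -1.11 to -0.65, adjusted p = 8.36e-05).

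Of the enzymes that spend ATP, Hk2 (ENSMUSG00000000628, mm9 chromosome 6, minus strand, 82675019 to 82724448) phosphorylates glucose in muscle and tumours and is normally scarce in hepatocytes. It had 0.128, 0.102 and 0.109 FPKM in KO-labelled DMSO libraries and 0.151, 0.195 and 0.135 FPKM in control DMSO libraries. These groups did not overlap, but a two-sided exact permutation test gave p = 0.1, the smallest it can give for 3 against 3, and levels this low rest on few fragments. Pfkl (ENSMUSG00000020277, mm9 chromosome 10, minus strand, 77449692 to 77472828), the committing step of the pathway, had 14.8, 15.6 and 15.5 FPKM in KO-labelled DMSO libraries, against 25.5, 21.2 and 21 FPKM in control DMSO libraries. The libraries were tighter in KO-labelled than in control cells, and the means differed by -32.1% (log2 difference -0.52, SE 0.09, adjusted p = 0.00134).

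Aldolase A cuts the 6-carbon sugar and triosephosphate isomerase interconverts the products. Aldoa (ENSMUSG00000030695, mm9 chromosome 7, minus strand, 133938748 to 133944265) had 133, 141 and 140 FPKM in KO-labelled DMSO libraries and 196, 174 and 180 FPKM in control DMSO libraries. Its means differed by -24.7%, at 138 ± 4.68 FPKM in KO-labelled cells and 183 ± 11.6 FPKM in control cells (log2 difference -0.41, SE 0.06, adjusted p = 0.000357). Tpi1 (ENSMUSG00000023456, mm9 chromosome 6, minus strand, 124760604 to 124764314) had 80.9, 84.3 and 91.4 FPKM in KO-labelled DMSO libraries, against 139, 125 and 126 FPKM in control DMSO libraries. It had the smallest adjusted p of the 9 genes in this comparison, 2.59e-05, with a log2 difference of -0.60 (SE 0.06, -34.1%). The Tpi1 model overlaps that of Spsb2 on the opposite strand by 34 bases.

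The middle steps, which make ATP and NADH, were lower as well. Gapdh (ENSMUSG00000057666, mm9 chromosome 6, minus strand, 125111871 to 125116485), the NADH-forming enzyme whose transcript often serves as a loading control, had 110, 108 and 109 FPKM in KO-labelled DMSO libraries and 151, 142 and 143 FPKM in control DMSO libraries. All 3 KO-labelled libraries were below the control libraries, and the means differed by -25.0% (log2 difference -0.41, SE 0.05, adjusted p = 0.000159). Pgk1 (ENSMUSG00000062070, mm9 chromosome X, plus strand, 103382439 to 103399038), the first ATP-yielding kinase, had 177, 181 and 189 FPKM in KO-labelled DMSO libraries and 249, 212 and 214 FPKM in control DMSO libraries. The difference was -18.9% (log2 difference -0.30, SE 0.06, adjusted p = 0.00539), and control library 1 stood above the other control libraries. Eno1 (ENSMUSG00000063524, mm9 chromosome 4, plus strand, 149610830 to 149622988), which makes phosphoenolpyruvate, had 224, 222 and 209 FPKM in KO-labelled DMSO libraries and 264, 242 and 257 FPKM in control DMSO libraries. Its difference was the smallest of the 9 genes at -14.2% (log2 difference -0.22, SE 0.06, adjusted p = 0.0193). The Eno1 call did not hold after scaling libraries to the same sum (adjusted p = 0.0993), after quantile normalization (0.0521), or without control DMSO library 1 (0.0758), control DMSO library 3 (0.0624) or KO-labelled DMSO library 3 (0.0794).

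At the end of the pathway, Pkm2 (ENSMUSG00000032294, mm9 chromosome 9, plus strand, 59504383 to 59527182), the pyruvate kinase gene of non-hepatic tissues, had 10.4, 4.65 and 5.62 FPKM in KO-labelled DMSO libraries, against 25.3, 16.1 and 19.5 FPKM in control DMSO libraries. Library 1 was the highest of its group on both sides, and even so the groups did not overlap. The means were 6.9 ± 3.1 FPKM in KO-labelled cells and 20.3 ± 4.61 FPKM in control cells, the largest difference among the 9 genes (log2 difference -1.48, SE 0.23, 95% interval -1.98 to -0.97, adjusted p = 0.000814). Without KO-labelled DMSO library 1 the log2 difference was -1.78. Ldha (ENSMUSG00000063229, mm9 chromosome 7, plus strand, 54096845 to 54110997) had 407, 404 and 438 FPKM in KO-labelled DMSO libraries, against 579, 574 and 552 FPKM in control DMSO libraries. The gap between the groups was wide beside the spread within each (-26.8%, log2 difference -0.45, SE 0.07, adjusted p = 0.000637).

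Macrophages use the M-type pyruvate kinase, and their markers moved in this comparison. The 12 macrophage markers in the table summed to 40.6, 45.2 and 53.8 FPKM in KO-labelled DMSO libraries and 55.5, 69.2 and 55.3 FPKM in control DMSO libraries. Of 10 markers tested, Marco, Cd5l, C1qa and C1qb were lower in KO-labelled cells, Cd68 was higher and 5 did not pass. Cd68, the most abundant of these markers, averaged 23.7 ± 2.95 FPKM in KO-labelled cells and 18.3 ± 1.86 FPKM in control cells. Leaving out Cd68, the marker that passed as higher, widens the difference between the groups by construction. Without Cd68 the sum was 20.0 to 27.3 FPKM in KO-labelled libraries and 36.8 to 49.4 FPKM in control libraries. Marco, a scavenger receptor of macrophages, averaged 1.66 ± 0.462 FPKM in KO-labelled cells and 9.52 ± 1.34 FPKM in control cells (SD, n = 3 each; log2 difference -1.99, adjusted p = 1.21e-05). Within the KO-labelled DMSO group, library 1 had the highest Pkm2 level and the lowest macrophage sum, together with the highest endothelial sum (14.4 FPKM, beside 9.77 and 10.4 FPKM). The endothelial sum was 9.77 to 14.4 FPKM in KO-labelled DMSO libraries and 6.49 to 7.32 FPKM in control DMSO libraries, with Stab1 and Lyve1 higher among 3 tested markers. The bile duct sum was 29.1 to 38.8 FPKM in KO-labelled libraries and 42.1 to 44.7 FPKM in control libraries, with Sox9 higher (1.46, adjusted p = 1.57e-05) and Spp1 lower (-0.70, adjusted p = 0.00505). The red cell sum was 29.4 to 33.1 FPKM in KO-labelled libraries and 36.2 to 39.0 FPKM in control libraries, and none of 3 tested markers passed. The part of other cell types in the Pkm2 difference was not tested.

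**Figure D2:**
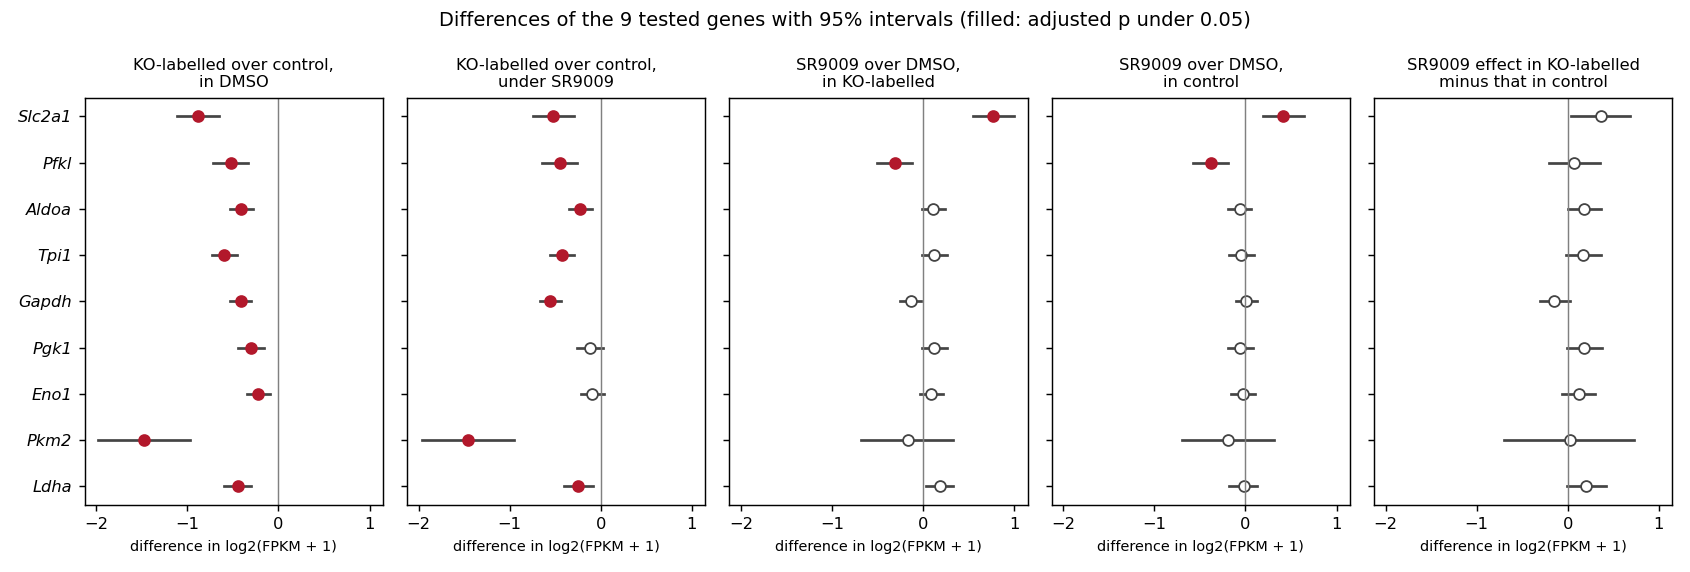
Differences in log2(FPKM + 1) (horizontal axes) of the 9 tested genes in the 5 comparisons, with 95% intervals; filled points have an adjusted p under 0.05. All 9 points are filled and left of 0 for KO-labelled over control in DMSO, 7 under SR9009, and Slc2a1 (right of 0) and Pfkl (left of 0) are the filled points of both SR9009 comparisons.

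The same genotype comparison in SR9009-treated cells asked whether the difference was present when both genotypes had received the compound. Of the 9 genes, 7 were lower in KO-labelled cells, while Pgk1 and Eno1 did not pass, and none was higher. Over all tested genes 7.43% passed as lower and 12.9% as higher (20.4% in either direction). These were 833 lower and 1450 higher genes as deposited, 654 lower and 1849 higher after scaling to the same sum, and 1120 lower and 1042 higher after median-ratio scaling, which turned the balance. Of the members, 5 were lower after scaling to the same sum and 7 after median-ratio scaling. The groups did not overlap for 8 of the 9 genes, all but Eno1, and 12.3% of tested genes were separated in that direction. The median log2 difference was -0.43, beside 0.06 over all tested genes. The 2 genotype comparisons share no libraries, but they come from the same fit and the same kinds of cells.

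Slc2a1 had 29.8, 28.9 and 25.7 FPKM in KO-labelled SR9009 libraries, against 44.3, 38.2 and 39.5 FPKM in control SR9009 libraries, a difference of -30.9% (log2 difference -0.52, adjusted p = 0.00361). Hk2 had 0.0619, 0.064 and 0.25 FPKM in KO-labelled SR9009 libraries and 0.219, 0.193 and 0.195 FPKM in control SR9009 libraries. KO-labelled library 3 was the highest of the 6 and libraries 1 and 2 the lowest, and the exact permutation test gave p = 0.4 (two-sided). Pfkl had 12.1, 11.6 and 12.8 FPKM in KO-labelled SR9009 libraries and 18.9, 15.4 and 16.8 FPKM in control SR9009 libraries (-28.8%, log2 difference -0.45, adjusted p = 0.00331).

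Aldoa had 156, 151 and 141 FPKM in KO-labelled SR9009 libraries and 179, 172 and 175 FPKM in control SR9009 libraries (-14.6%, log2 difference -0.23, adjusted p = 0.015). Tpi1 had 90.9, 92.4 and 95.9 FPKM in KO-labelled SR9009 libraries and 128, 119 and 129 FPKM in control SR9009 libraries (-25.8%, log2 difference -0.43, adjusted p = 0.000373). Both genes were separated between genotypes, Tpi1 by a wider gap. The Aldoa call did not hold after scaling to the same sum (adjusted p = 0.0763), in a fit of these 2 groups alone (0.0512), without KO-labelled SR9009 library 3 (0.0716) or without the 2 shallowest libraries (0.0515).

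Gapdh had 103, 99.4 and 95.4 FPKM in KO-labelled SR9009 libraries and 149, 138 and 153 FPKM in control SR9009 libraries. Its log2 difference of -0.56 (-32.3%) came with the smallest adjusted p of the 9 genes in this comparison, 1.17e-05. Pgk1 had 196, 201 and 199 FPKM in KO-labelled SR9009 libraries and 215, 208 and 224 FPKM in control SR9009 libraries; these did not overlap, yet the log2 difference of -0.12 (95% interval -0.26 to 0.02) did not pass (adjusted p = 0.219). Eno1 had 244, 230 and 225 FPKM in KO-labelled SR9009 libraries and 264, 235 and 249 FPKM in control SR9009 libraries, which overlapped (log2 difference -0.10, adjusted p = 0.282).

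Pkm2 had 6.39, 5.03 and 5.7 FPKM in KO-labelled SR9009 libraries, against 15.6, 16.8 and 20 FPKM in control SR9009 libraries. With no library standing apart, its means were 5.71 ± 0.682 FPKM in KO-labelled cells and 17.5 ± 2.29 FPKM in control cells (-67.3%, log2 difference -1.46, adjusted p = 0.000809). The macrophage sum was 51.1 to 54.8 FPKM in KO-labelled SR9009 libraries and 57.3 to 62.2 FPKM in control SR9009 libraries, with 1 of 10 tested markers lower (Marco), 1 higher (Cd68) and 8 not passing. Without Cd68, a choice that again widens the difference by construction, the sum was 23.7 to 26.6 FPKM in KO-labelled libraries. In control libraries it was 39.1 to 41.7 FPKM. Marco averaged 1.85 ± 0.76 FPKM in KO-labelled cells and 9.4 ± 1.47 FPKM in control cells (SD, n = 3 each; log2 difference -1.89, adjusted p = 1.67e-05), and Cd68 averaged 28 ± 2.87 FPKM in KO-labelled cells and 19 ± 1.28 FPKM in control cells (0.53, adjusted p = 0.00332). The endothelial sum was 9.88 to 10.1 FPKM in KO-labelled libraries and 6.83 to 8.68 FPKM in control libraries, with none of 3 tested markers passing. Bile duct markers summed to 34.5 to 38.7 FPKM in KO-labelled libraries and 39.4 to 61.7 FPKM in control libraries, with Sox9 higher and Spp1 lower, and red cell markers to 27.4 to 34.0 FPKM in KO-labelled libraries and 37.5 to 44.5 FPKM in control libraries, with 2 of 3 lower. The part of these cell types in the Pkm2 difference was not tested here either. Ldha had 512, 425 and 480 FPKM in KO-labelled SR9009 libraries and 544, 538 and 596 FPKM in control SR9009 libraries (-15.5%, log2 difference -0.25, SE 0.07, adjusted p = 0.0257). The Ldha call held in 13 of 21 alternative fits, with adjusted p between 0.0128 and 0.11, and the highest came without KO-labelled SR9009 library 2.

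The next comparisons asked what SR9009 did within each genotype. In KO-labelled cells 1 of the 9 genes, Slc2a1, was higher with SR9009, Pfkl was lower and 7 did not pass, while 5.32% of all tested genes passed as higher and 4.56% as lower (9.87% in either direction). In control cells the same 2 genes passed in the same directions and 7 did not, with 3.69% of tested genes higher and 4.55% lower (8.24% in either direction). The members' median log2 difference was 0.11 in KO-labelled cells, beside 0.00 over all tested genes, and -0.05 in control cells, beside -0.02.

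Slc2a1 averaged 28.1 ± 2.15 FPKM in KO-labelled SR9009 cells and 16.1 ± 2.1 FPKM in KO-labelled DMSO cells, 1.75-fold higher with the compound. The log2 difference of 0.77 (SE 0.10, 95% interval 0.55 to 1.00, adjusted p = 0.000639) passed in 21 of 21 alternative fits. In control cells it averaged 40.7 ± 3.21 FPKM with SR9009 and 30.3 ± 3.28 FPKM with DMSO, 1.34-fold higher (log2 difference 0.41, SE 0.10, 95% interval 0.19 to 0.64, adjusted p = 0.0308). That call was lost with no filter on low values (adjusted p = 0.0782), after scaling to the same sum (0.0546), in a fit of the 2 groups alone (0.0641), without control DMSO library 2 (0.111), control DMSO library 3 (0.11) or control SR9009 library 1 (0.0996), and without the 2 shallowest libraries (0.0866), with log2 differences of 0.35 to 0.50 over all alternatives. In neither genotype did the SR9009 libraries overlap the DMSO libraries. KO-labelled SR9009 cells, at 25.7 to 29.8 FPKM, were thus near control DMSO cells, at 28.3 to 34.1 FPKM, a pair that was not tested against each other.

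Pfkl averaged 12.1 ± 0.63 FPKM in KO-labelled SR9009 cells and 15.3 ± 0.399 FPKM in KO-labelled DMSO cells (-20.7%, log2 difference -0.31, SE 0.09, adjusted p = 0.0481). In control cells it averaged 17 ± 1.76 FPKM with SR9009 and 22.5 ± 2.53 FPKM with DMSO (-24.4%, log2 difference -0.38, SE 0.09, adjusted p = 0.0221). The libraries did not overlap in either genotype, so SR9009 and the KO label went with lower Pfkl in each of the 4 pairings of groups. The call in KO-labelled cells held in 8 of 21 alternative fits (adjusted p 0.0243 to 0.157) and was lost when any 1 library of the 2 groups, or control DMSO library 2 or 3, was left out. That in control cells held in 17 of 21 (0.0149 to 0.11), being lost without control DMSO library 1 (0.0916), without control SR9009 library 2 (0.0702), in a fit of the 2 groups alone (0.11) and with no filter on low values (0.0521).

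The other 7 tested genes, from aldolase to lactate dehydrogenase, did not pass in either genotype. In control cells their log2 differences with SR9009 lay close to 0, between -0.19 for Pkm2 and 0.01 for Gapdh, and the 2 groups overlapped for all 7, where 25.0% of tested genes did not overlap in either direction. In KO-labelled cells 6 of the 9 genes did not overlap between SR9009 and DMSO, where 32.3% of tested genes did not overlap in either direction. Besides Slc2a1 and Pfkl these were Aldoa (150 ± 7.65 FPKM with SR9009 and 138 ± 4.68 FPKM with DMSO; log2 difference 0.11, adjusted p = 0.273), Pgk1 (199 ± 2.57 and 182 ± 6.14 FPKM; 0.12, adjusted p = 0.272), Eno1 (233 ± 9.34 and 218 ± 8.23 FPKM; 0.09, adjusted p = 0.373) and Gapdh (99.4 ± 3.92 and 109 ± 1.04 FPKM; -0.13, adjusted p = 0.149). Ldha, at 473 ± 44 FPKM in KO-labelled SR9009 cells and 416 ± 18.8 FPKM in KO-labelled DMSO cells, overlapped between groups and had a log2 difference of 0.18 with a 95% interval of 0.03 to 0.33 (adjusted p = 0.137). A p that misses the threshold does not show that these genes stayed level: the interval of Pkm2, the most variable member, was the widest. For Hk2, two-sided exact permutation tests of SR9009 against DMSO gave p = 1.0 in KO-labelled cells and p = 0.3 in control cells, with overlapping libraries in both.

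Whether the compound acted differently in the 2 genotypes is tested by the interaction, the SR9009 effect in KO-labelled cells minus that in control cells. None of the 9 genes passed (lowest adjusted p 0.673), and over all tested genes 3, or 0.0268%, did. At an unadjusted p under 0.05, 1 of the 9 genes (Slc2a1) and 787 of all tested genes were found by limma, the one method run for this contrast, and no member passed in any of its 20 alternative fits. For Slc2a1 the estimate was 0.36 (SE 0.15, 95% interval 0.04 to 0.68), and for Pfkl 0.07 (95% interval -0.21 to 0.35). For 8 of the 9 genes the estimate was above 0, Gapdh being the exception at -0.15, and the median was 0.17, beside 0.02 over all tested genes. The signs and this median draw on the same 4 group means as the comparisons above. Control DMSO library 1 was the highest of its group for all 9 genes, so the signs are not independent. The share of all tested genes with an estimate above 0 was not counted.

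Slc2a1 and Pkm2 were set beside a hepatocyte counterpart measured in the same libraries. In KO-labelled DMSO cells, set against control DMSO cells, 1 of these counterparts was lower and 1 was higher. Slc2a2 (GLUT2) had 41.8, 52.2 and 41.9 FPKM in KO-labelled DMSO libraries and 92.7, 102 and 105 FPKM in control DMSO libraries, so it was lower together with Slc2a1 (-54.6%, log2 difference -1.13, adjusted p = 5.77e-06). Under SR9009 it had 32.7, 35 and 36.8 FPKM in KO-labelled libraries and 88.3, 97.4 and 78.3 FPKM in control libraries (log2 difference -1.31, adjusted p = 1.36e-06). With the compound it was lower in KO-labelled cells (log2 difference -0.36, adjusted p = 0.0364), where Slc2a1 was higher, and did not pass in control cells (-0.18, adjusted p = 0.316). Of the 2 transporters' summed FPKM, Slc2a1 made up 44.6% ± 3.31 in KO-labelled SR9009 cells, 26.4% ± 4.83 in KO-labelled DMSO cells, 31.7% ± 3.04 in control SR9009 cells and 23.4% ± 3.07 in control DMSO cells (SD, n = 3 each). The SR9009 shares lay above the DMSO shares in each genotype without overlap, and the 2 DMSO groups overlapped. Under SR9009 the KO-labelled shares lay above the control shares without overlap, although Slc2a1 itself was lower in KO-labelled cells there. For each of these separations the two-sided exact permutation test gave p = 0.1, the smallest possible for 3 against 3.

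Pklr went the other way from Pkm2. It had 192, 153 and 149 FPKM in KO-labelled DMSO libraries and 127, 125 and 128 FPKM in control DMSO libraries (+30.4%, log2 difference 0.37, adjusted p = 0.0263). Under SR9009 it had 154, 151 and 161 FPKM in KO-labelled libraries and 83.8, 106 and 80.9 FPKM in control libraries (+72.1%, log2 difference 0.79, adjusted p = 0.000198). SR9009 went with less Pklr in control cells (log2 difference -0.49, adjusted p = 0.0133), and in KO-labelled cells the difference of -0.08 did not pass (adjusted p = 0.717). Of the pair's FPKM, Pkm2 made up 3.55% ± 0.399 in KO-labelled SR9009 cells and 3.91% ± 1.13 in KO-labelled DMSO cells, against 16.4% ± 3.11 in control SR9009 cells and 13.8% ± 2.62 in control DMSO cells. The shares did not overlap between genotypes in either treatment (exact permutation p = 0.1, two-sided, the smallest possible for 3 against 3). The Pklr model overlaps that of Hcn3 on the opposite strand by 711 bases.

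**Figure D3:**
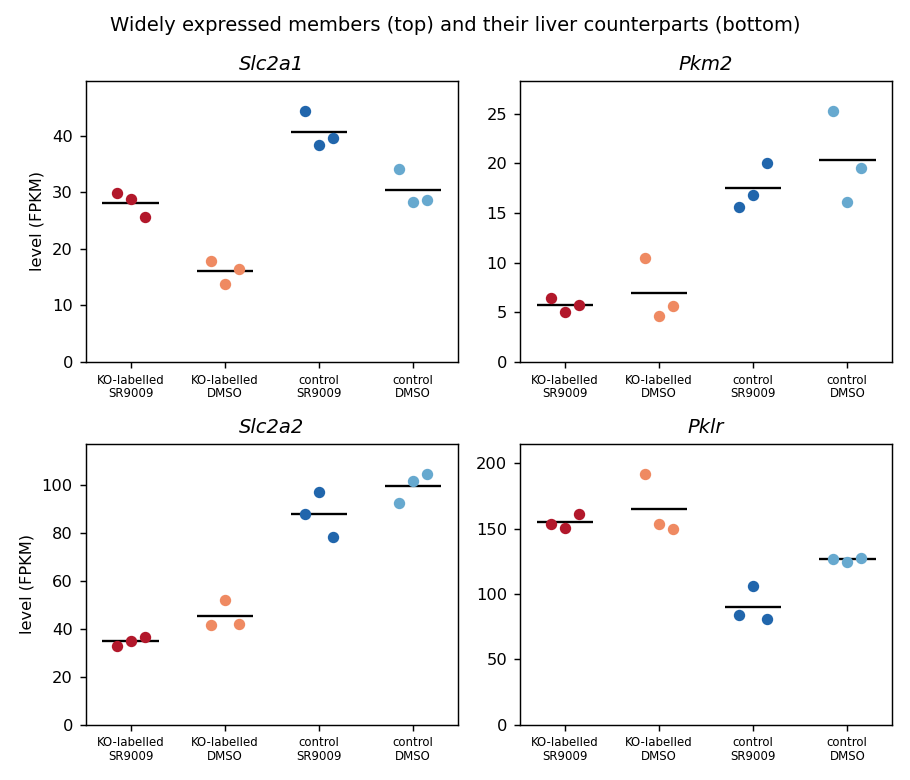
Levels in FPKM (vertical axes, each starting at 0) of Slc2a1 and Pkm2 (top) and of the hepatocyte forms Slc2a2 and Pklr (bottom) in the 12 libraries, by group; points are libraries and bars group means. Slc2a2 is lower in KO-labelled cells like Slc2a1, and Pklr is higher in KO-labelled cells where Pkm2 is lower.

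Beyond the members, a list of 30 other glycolysis and lactate genes was read, of which 28 were matched in the table and 18 were tested. In KO-labelled against control cells in DMSO, 4 were lower (Slc2a2, Gpi1, Pgam1 and the lactate carrier Slc16a7), 3 were higher (Pklr, Gckr and Pfkfb1) and 11 did not pass, with a median log2 difference of 0.13. Gpi1 and Pgam1, the isomerase and mutase that link the members' steps, averaged 242 ± 20.8 and 101 ± 5.03 FPKM in KO-labelled DMSO cells, against 294 ± 31.9 and 122 ± 8.59 FPKM in control DMSO cells (log2 difference -0.28 for each, adjusted p = 0.0235 and 0.00874). Gckr, which encodes a regulator of glucose phosphorylation, averaged 55 ± 0.42 FPKM in KO-labelled DMSO cells and 34.1 ± 1.4 FPKM in control DMSO cells (log2 difference 0.67, adjusted p = 1.46e-05). Slc16a7, at low levels, differed by -63.4% (log2 difference -1.06, adjusted p = 0.000206), and Pfkfb1 by 81.6% (0.62, adjusted p = 0.0107).

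Under SR9009 the genotype comparison gave 2 lower (Slc2a2 and Slc16a7), 3 higher (Pklr, Gckr and Slc16a1) and 13 not passing, with a median of 0.14. Other forms of the members' enzymes that were tested, namely Slc2a8, Slc2a9, Pfkm, Aldoc and Eno3, passed in none of the 5 comparisons. Hk1, Slc2a3 and Ldhb, close relatives of Hk2, Slc2a1 and Ldha, were below the filter.

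With SR9009 in KO-labelled cells, 4 of these 18 genes were lower (Slc2a2, Pfkfb1, Pfkfb2 and Pdk1), 1 was higher (Slc16a1) and 13 did not pass. In control cells 3 were lower (Pfkfb1, Pklr and Pdk1), 1 was higher (Slc16a1) and 14 did not pass. Slc16a1 (MCT1), a carrier that moves lactate across the cell membrane, was the listed gene that, like Slc2a1, was higher with SR9009 in both genotypes. It averaged 38 ± 2.3 FPKM in KO-labelled SR9009 cells and 29.5 ± 1.17 FPKM in KO-labelled DMSO cells (log2 difference 0.36, adjusted p = 0.00478), and 32.6 ± 1.93 FPKM in control SR9009 cells and 26.7 ± 1.04 FPKM in control DMSO cells (0.28, adjusted p = 0.0221). Its genotype difference in DMSO, 0.14, did not pass (adjusted p = 0.166). Of the 3 tested genes that make or remove the PFK activator fructose 2,6-bisphosphate, Pfkfb1 was lower with SR9009 in both genotypes (-0.71, adjusted p = 0.00949 in KO-labelled cells and -0.52, adjusted p = 0.0489 in control cells). Pfkfb2 was lower in KO-labelled cells (-0.63, adjusted p = 0.00361), and its difference of -0.24 in control cells did not pass (adjusted p = 0.223). Pfkfb3, the most abundant of them at 21.9 to 37.7 FPKM on average, passed in neither genotype (-0.01, adjusted p = 0.991 in KO-labelled cells and 0.03, adjusted p = 0.973 in control cells). Pdk1, which restrains pyruvate dehydrogenase, was lower in both (-0.50, adjusted p = 0.0485 in KO-labelled cells and -0.55, adjusted p = 0.0354 in control cells).

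Because several members are textbook targets of HIF-1 and MYC, a list of 12 regulators and a list of 14 other HIF-1 targets were read beside them. The regulator list also holds Mlxipl, Mlx and Txnip, so its counts are not limited to HIF-1 and MYC. These lists were also chosen with earlier results of these data known. Hif1a itself passed in no comparison, at 22.7 ± 2.64 FPKM in KO-labelled SR9009 cells, 16.8 ± 2.09 FPKM in KO-labelled DMSO cells, 24.6 ± 3.94 FPKM in control SR9009 cells and 18.6 ± 2.37 FPKM in control DMSO cells. Of the 12 regulators, 5 were lower in KO-labelled cells in DMSO (Epas1, Egln1, Egln3, Mlx and Txnip), 2 were higher (Arnt and Mlxipl) and 5 did not pass. The clearest was Egln3, an oxygen-sensing prolyl hydroxylase that HIF-1 is known to induce, with 9.17, 9.04 and 8.75 FPKM in KO-labelled DMSO libraries and 19.7, 18.5 and 18.3 FPKM in control DMSO libraries (-52.2%, log2 difference -0.99, adjusted p = 5.9e-07). Arnt, the partner of Hif1a, averaged 11.8 ± 0.177 FPKM in KO-labelled DMSO cells and 7.56 ± 0.386 FPKM in control DMSO cells (log2 difference 0.58, adjusted p = 0.000315). Under SR9009, 4 were lower (Epas1, Egln1, Egln3 and Myc), 1 was higher (Arnt) and 7 did not pass.

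SR9009 went with higher Myc and Egln3 in both genotypes. Myc averaged 109 ± 10.3 FPKM in KO-labelled SR9009 cells and 78.3 ± 1.16 FPKM in KO-labelled DMSO cells (log2 difference 0.47, adjusted p = 0.00193), and 138 ± 10.6 FPKM in control SR9009 cells and 90.7 ± 4.26 FPKM in control DMSO cells (0.60, adjusted p = 0.000507). Egln3 had 12.8, 13.2 and 14.7 FPKM in KO-labelled SR9009 libraries, against the KO-labelled DMSO values above (log2 difference 0.54, adjusted p = 0.000365), and 22.6, 21.7 and 22.8 FPKM in control SR9009 libraries (0.24, adjusted p = 0.0488, against control DMSO). The order of its group means was that of Slc2a1, highest in control SR9009 cells, then control DMSO, KO-labelled SR9009 and KO-labelled DMSO cells. Of the other HIF-1 targets that were tested, Adm, Ero1l and Higd1a had this order of means too, and the rest did not. None of them passed SR9009 against DMSO in either genotype (adjusted p 0.0549 to 0.669). For Ero1l and Higd1a the SR9009 and DMSO libraries overlapped in both genotypes. Rheb, Hspb1 and Junb also had this order, but they were picked for likeness to the members' profile, which includes Slc2a1. Dhrs7 and Mup12, picked the same way, did not have it. How many of all genes share the order was not counted, and a common cause was not tested. In each genotype 1 regulator was lower with the compound, Arnt in KO-labelled cells (-0.34, adjusted p = 0.0211) and Egln1 in control cells (-0.27, adjusted p = 0.0304), and 9 did not pass.

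Of the 14 other HIF-1 targets 13 were tested, Car9 being below the filter. In KO-labelled cells in DMSO 9 were lower (Adm, Hmox1, Ankrd37, Ero1l, Higd1a, Vegfa, P4ha1, P4ha2 and Ddit4), 1 was higher (Ndrg1) and 3 did not pass, with a median log2 difference of -0.51. Adm, the vasodilator adrenomedullin, averaged 10.6 ± 1.69 FPKM in KO-labelled cells and 31.5 ± 5.06 FPKM in control cells (-1.49, adjusted p = 3.51e-05), and Vegfa, the angiogenic growth factor, 25.2 ± 2.99 FPKM in KO-labelled cells and 36.3 ± 4.17 FPKM in control cells (-0.51, adjusted p = 0.00173). Ndrg1 went the other way, at 14.9 ± 0.404 FPKM in KO-labelled DMSO cells and 6.14 ± 0.383 FPKM in control DMSO cells (1.15, adjusted p = 1.69e-07). Under SR9009 7 were lower, 1 was higher (Ndrg1 again) and 5 did not pass, with a median of -0.28; Hmox1 and P4ha1 were those lower in DMSO that did not pass here.

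SR9009 did not move these targets one way. In KO-labelled cells 3 were higher (Hmox1, Ndrg1 and Bhlhe40), 2 were lower (Bnip3 and Ddit4) and 8 did not pass, and in control cells 3 were higher (the same 3 symbols), 3 were lower (Bnip3, Ddit4 and P4ha1) and 7 did not pass. Hmox1, the heme-degrading enzyme, averaged 125 ± 11.8 FPKM in KO-labelled SR9009 cells and 53.2 ± 3.94 FPKM in KO-labelled DMSO cells (1.21, adjusted p = 3.01e-05). Bnip3, a mitophagy receptor, averaged 53.9 ± 2.05 FPKM in KO-labelled SR9009 cells and 94.2 ± 11.3 FPKM in KO-labelled DMSO cells (-0.79, adjusted p = 0.00131). Medians were 0.13 in KO-labelled cells and -0.04 in control cells, and no gene of either list passed the interaction.

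**Figure D4:**
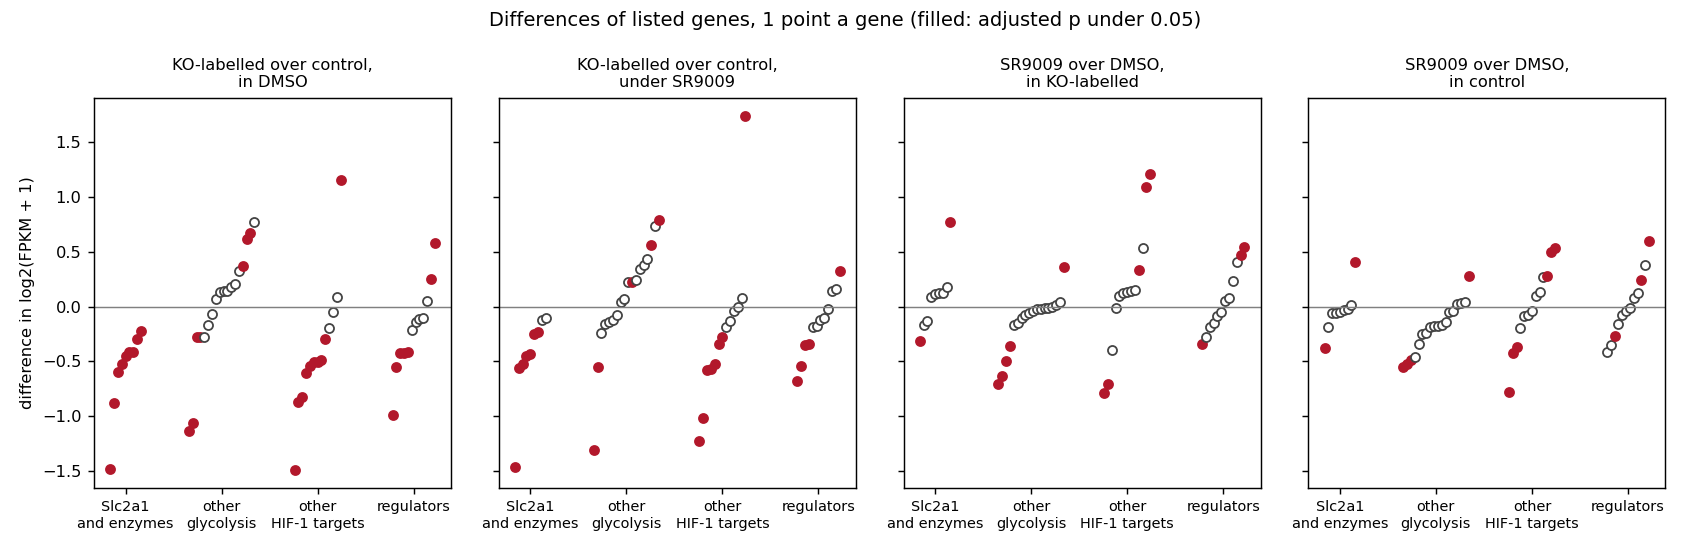
Differences in log2(FPKM + 1) (vertical axis) of the tested genes of 4 lists in 4 comparisons, 1 point per gene in rising order within a list; filled points have an adjusted p under 0.05. For KO-labelled over control in DMSO, all 9 points of Slc2a1 and the enzymes and 9 of 13 of the other HIF-1 targets are filled below 0, while the other glycolysis genes fall on both sides.

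To see which genes shared the members' pattern, the 9 tested genes were standardised and averaged per library, and other named genes with a mean of at least 5 FPKM were ranked by Pearson r to this profile over the 12 libraries. The highest among the genes reported here were Dhrs7 (r = 0.979), Rheb (0.971), Mup12 (0.968), Hspb1 (0.968) and Junb (0.968), given as a description: the libraries form groups, and the r mostly reflects the step between genotypes. Dhrs7, a short-chain dehydrogenase, averaged 15.8 ± 0.625 FPKM in KO-labelled SR9009 cells, 14.7 ± 0.879 FPKM in KO-labelled DMSO cells, 20.7 ± 1.28 FPKM in control SR9009 cells and 22.8 ± 1.49 FPKM in control DMSO cells. Rheb, the GTPase that switches on mTORC1, averaged 46.4 ± 2.66, 41.3 ± 0.632, 64.2 ± 3.73 and 60.9 ± 4.62 FPKM in the same 4 groups, and the small heat shock protein gene Hspb1 78.9 ± 5.2, 63.2 ± 4.12, 187 ± 8.64 and 179 ± 2.26 FPKM. Junb, a subunit of the AP-1 transcription factor, averaged 54.2 ± 3.52, 47.3 ± 1.93, 82.0 ± 10.4 and 75.5 ± 9.41 FPKM, in the same order. Mup12 belongs to the near-identical major urinary protein genes, between which reads can be split. Among the members, Tpi1 (r = 0.981) and Aldoa (0.975) lay closest to the shared profile, which they also help to form, and Slc2a1 (0.799) and Pfkl (0.776), those that passed under SR9009, lay farthest.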

How the data were processed

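RNA of plated mouse hepatocytes was sequenced in 12 libraries, 3 in each of 4 groups named by the labels. Per the labels' protocols, the NEBNext Ultra II kit was used after selection of polyadenylated RNA and depletion of ribosomal RNA. The submitters' processing notes name HISAT2, StringTie and the mm9 build, with no versions, annotation release or strand setting. The authors deposited 1 table of gene values, taken here as FPKM because library sums differed (538521 to 604449) and low values fell in steps that scale with gene length; its header names no unit. Total read numbers are not in the table, so no counting intervals are given.

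Values were transformed to log2(FPKM + 1), genes reaching 1 FPKM in 3 or more libraries were kept, and group means were fitted over all 12 with limma 3.58.1 (R 4.3.3; trend and robust variance), after the same code had been checked on simulated data. P-values were adjusted by Benjamini-Hochberg over the 11213 genes tested, in 5 comparisons, at 0.05. Intervals are 95% intervals of the fit, errors after ± are SDs, and percentages are ratios of group means in FPKM. Hk2 and shares of a gene pair were compared by exact permutation of libraries. Coordinates of genes are those of the deposited table (mm9), and those of promoters are RefSeq's (GRCm38.p6), with no conversion between them. The text names all 10 members, tested forms of their enzymes, listed genes that passed in at least 1 comparison, and the 5 genes most like the members; a few genes that this rule would name are not reported here. The members and lists were chosen with earlier results of these data known. Alternatives were another pseudocount (0.1), no filter, 3 scalings, fewer groups, a replicate block, plain variance and each library left out; leaving out the 2 shallowest libraries was added after seeing the data.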

Additional observations from a re-analysis of the deposited data

How the results depend on the processing

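In 21 alternative fits per comparison (20 for the interaction), 876 of the members' values kept their direction and their side of the threshold, 41 lost their call, 2 gained one and 17 changed sign. The gains were SR9009 differences in KO-labelled cells, of Gapdh after quantile normalization (adjusted p = 0.0283) and of Ldha without KO-labelled SR9009 library 2 (0.046). In DMSO the genotype comparison called 8 to 9 of the 9 genes, and under SR9009 5 to 7. In control cells SR9009 called 2 genes in the reported fit, 0 with no filter on low values, 0 with only the 2 groups compared, 1 after scaling to the same sum, 1 without the 2 shallowest libraries and 1 to 2 with single libraries left out. In KO-labelled cells it called 2, against 1 with no filter, 1 after scaling to the same sum, 1 with plain variance, 1 without the 2 shallowest libraries and 1 to 2 with single libraries left out. Over all genes, fits of only the 2 groups compared called 1518 for genotype under SR9009 (2283 in the reported fit) and 376 for SR9009 in control cells (924), and leaving out the 2 shallowest libraries gave 609 for the last. With single libraries left out, SR9009 called 530 to 919 genes in control cells, the lowest 3 values coming without a control DMSO library, and 603 to 1438 in KO-labelled cells (1107), with 711 without KO-labelled DMSO library 3, 603 without KO-labelled SR9009 library 1 and 672 without library 2. The interaction called 0 to 5 genes (3), with 0 without KO-labelled DMSO library 1 or 2 and 5 without control DMSO library 1. The interaction called 1 gene with no filter, 1 after quantile normalization, 1 with plain variance and 1 without the 2 shallowest libraries. The cause was not tested.

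The sign changes were all in differences that did not pass. In control cells the SR9009 difference of Gapdh was -0.004 after scaling to the same sum, -0.029 after quantile normalization and -0.02 to 0.054 with single libraries left out, and with single libraries left out it was -0.096 to 0.019 for Pgk1, -0.072 to 0.011 for Eno1 and -0.071 to 0.002 for Ldha. In KO-labelled cells that of Pkm2 was -0.38 to 0.13 with single libraries left out, at its highest without KO-labelled DMSO library 1, and 0.13 without the 2 shallowest libraries. The interaction of Pfkl was -0.016 to 0.14 with single libraries left out, at its lowest without control DMSO library 1, and that of Pkm2 was -0.009 after median-ratio scaling and -0.19 to 0.32 with single libraries left out.

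Samples with the same replicate number did not deviate together: the correlation of their deviations was -0.112 to 0.122 over 18 pairs, over 0.1 in 1 pair, and -0.117 to 0.181 over 36 pairs of other numbers. With a replicate block, SR9009 called 1 member in KO-labelled cells, Slc2a1, with Pfkl at an adjusted p of 0.053, and the interaction called 0 genes. Scaling to the same sum moved the median of all genes to 0.095 in DMSO and 0.122 under SR9009 in the genotype comparisons, which were 0.035 and 0.057 as reported. Low values limit Hk2, and 3 libraries per group limit every interval.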
